A study of Sus scrofa with 11 samples.

Results

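Chemokines and chemokine receptors were followed here in carotid artery of pigs, as the 38 genes of the deposited count table that carry a chemokine, chemokine receptor or atypical receptor name and have at least 10 counts in at least 2 of 10 libraries. The table names 43 such genes among 35670 genes in all, and 1 row stands for each name. The 38 members are 20 ligands, 14 receptors and 4 atypical receptors. All animals ate a high-fat, high-calorie diet for 12 weeks. They were infused weekly by vein, at 400 nM, with single-walled carbon nanotubes that carried a SHP-1 inhibitor, SHP-1 being a tyrosine phosphatase (group SWNT-SHP1i), or with bare nanotubes (group SWNT), so both groups received the carrier. The labels list 6 SWNT-SHP1i and 5 SWNT pigs and give no strain, sex or age. No counts were analysed for SWNT-SHP1i replicate 4, labelled as having died before harvest, which leaves 5 libraries in each group, 1 per animal.

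Chemokines are small secreted proteins that guide leukocytes along a concentration gradient. They are grouped by the spacing of their first cysteines (CC, CXC, CX3C and XC), and act on receptors that signal through inhibitory G proteins. Atypical receptors bind the same ligands without that signal and carry them across or out of the tissue. In atherosclerosis, work in mice has tied CCL2 with CCR2 and CX3CL1 with CX3CR1 to the entry of monocytes into the vessel wall.

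Total counts ran from 27593564 to 47718854 per library. Markers of smooth muscle were high in every library, with summed levels of 17200 to 43710 CPM in SWNT-SHP1i and 36110 to 53990 CPM in SWNT, and endothelial markers summed to 534 to 1249 CPM and 376 to 1320 CPM. CPM are counts per 1000000 of the TMM-scaled library size. These libraries are bulk tissue, so fewer cells of a type and less RNA per cell cannot be told apart. SWNT-SHP1i replicate 6 stood apart, with the highest level of 29.4% and the lowest of 30.7% of the 15930 genes tested. SWNT-SHP1i replicate 3 had no counts for 13.2% of the genes tested, SWNT-SHP1i replicate 6 for 4.04% and SWNT replicate 3 for 3.15%. The rest ranged from 0.0816% to 0.59%. The main results are given with and without SWNT replicate 3, as was set when the members were chosen. That library had the highest level of several inflammatory chemokines. It shares with SWNT-SHP1i replicate 3 a range of animal numbers that no other library has. Values by library run in the order of replicates 1, 2, 3, 5 and 6 for SWNT-SHP1i and 1 to 5 for SWNT.

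No chemokine or receptor gene passed the test between SWNT-SHP1i and SWNT. Of 35 members that could be tested, 0 had an adjusted p under 0.05, where 0% of the 15930 genes tested did (edgeR quasi-likelihood test, lowest adjusted p of a member 0.997). Each fold change is on the log2 scale, positive where SWNT-SHP1i was higher, and is given with its standard error (SE). It was above 0 for 18 members and below 0 for 17, with 50.8% of all genes above 0. The median was 0.07 over the members and 0.0056 over all genes tested. The 18 ligands tested had a median of -0.07 (8 above 0), the 13 receptors 0.07 (7 above 0) and the 4 atypical receptors 0.31 (3 above 0). Without SWNT replicate 3, 0 of 35 members were called, 0% of 16168 genes were called, and the median of the members was 0.20, with 0.68 for the ligands, -0.07 for the receptors and 0.51 for the atypical receptors. At an unadjusted p under 0.05 there were 3 members, CXCL14 and CCR1 on the higher side and CXCL2 on the lower, where 4.64% of all genes tested reached that level, 3.49% on the higher side and 1.15% on the lower. Without SWNT replicate 3 there were 2, CXCL14 and CCR1, where the share over all genes was 3.57%, with 2.73% higher and 0.841% lower. In 0 of 35 members did the groups lie apart, with 0.358% of all genes doing so over 10 libraries, and again in 0 of 35 without SWNT replicate 3, with 0.909% of all genes.

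The 38 members differed widely in level. Levels between genes are compared per exon length, as counts per base of exon scaled to a sum of 1000000 in each library (TPM). CCL19, a ligand of CCR7 that draws T cells and dendritic cells, had the highest median over the 10 libraries, 238 TPM. It was followed by CCL14, a ligand of CCR1, at 148 TPM, by the CXCL12 scavenger ACKR3 at 114 TPM, by the monocyte attractant CCL2 at 106 TPM and by ACKR1, the Duffy antigen receptor, at 99.4 TPM. All neighbours in this order, CCL19 and CCL14 included, overlapped in their ranges over libraries, which were 56.2 to 246 TPM for CCL14 and 43.8 to 202 TPM for ACKR1. CCL26 (89.1 TPM), CX3CL1 (64.1 TPM) and CXCL12 (59.0 TPM) came next. These 8 genes, 6 ligands and 2 atypical receptors, were the members with a median above 50 TPM. The receptor with the highest median was CX3CR1 at 15.3 TPM, and CXCR4 had 9.74 TPM. A median under 1 TPM was found for 9 members, 7 receptors (CXCR5, XCR1, CXCR6, CCR7, CCR4, CCR6 and CCR9) and 2 ligands (CCL27 and CCL17).

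The spread between animals was larger for some members than for others. CXCR4 varied 2.89-fold between its lowest and highest library, ACKR3 3.90-fold and CXCL12 4.26-fold in TPM. CCL21 varied 217-fold, CXCL8 198-fold and CXCL2 143-fold. The lowest library of CXCL8 held only 2 counts, so its ratio also carries counting error. Members with a library without counts, CCL17 and CCL22 among them, have no such ratio. Summed over all members, the ligands reached 755 to 1868 TPM in SWNT-SHP1i and 573 to 2082 TPM in SWNT. The receptors summed to 46.4 to 79.9 TPM in SWNT-SHP1i and 41.2 to 76.3 TPM in SWNT.

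**Figure D1:**
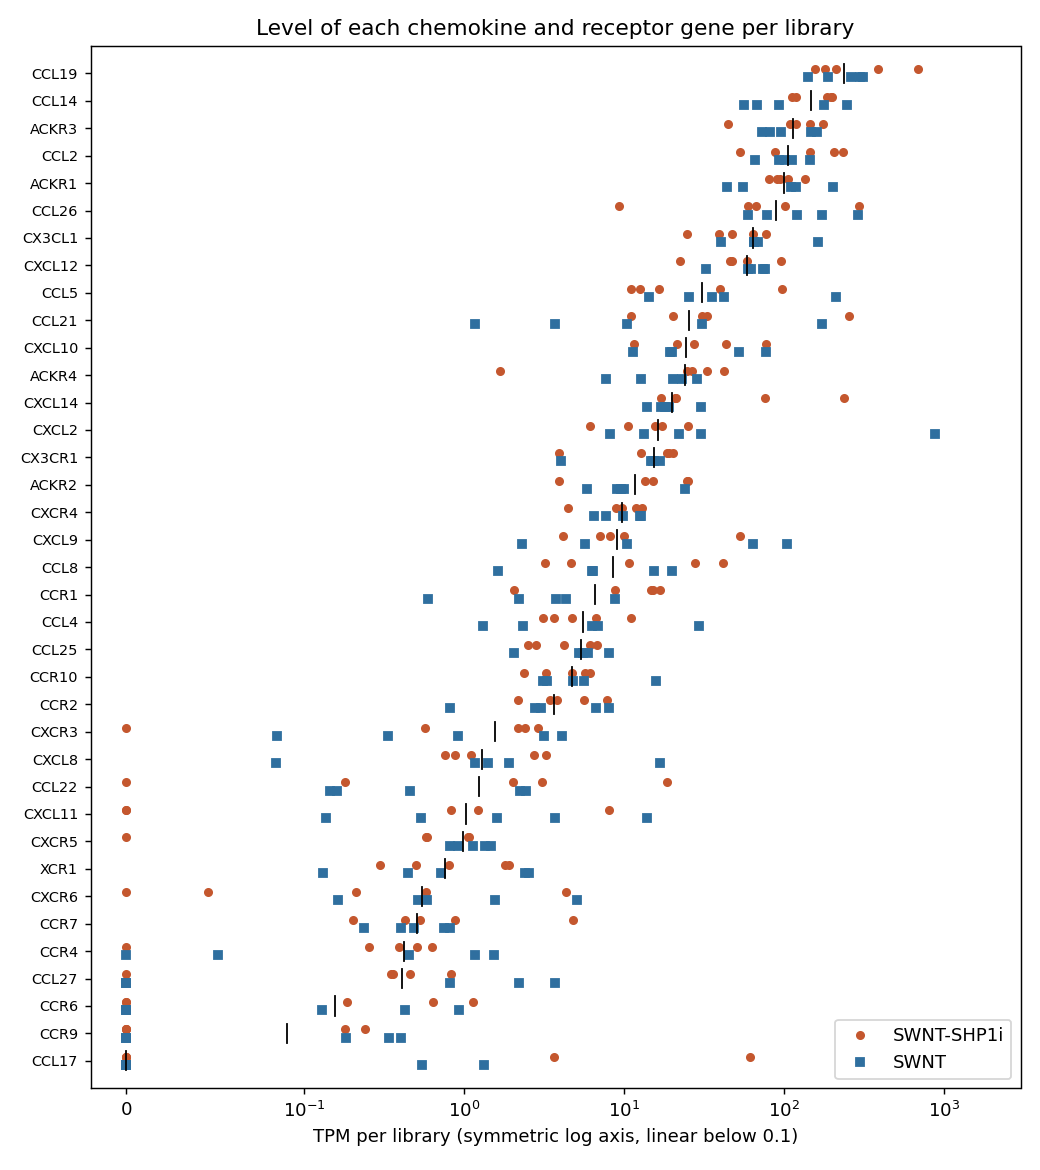
TPM of 37 of the members in each library on a symmetric log axis, linear below 0.1, with SWNT-SHP1i as circles above and SWNT as squares below on each row, and a black tick at the median of the 10 libraries. CCL19 is at the top with a median of 238 TPM, and CXCL2 shows 1 square far to the right of its other 9 points.

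At the lower edge of the count rule, CCL27 was kept with 20 and 10 counts in SWNT replicates 4 and 5, and CCR6 with 18 counts in SWNT-SHP1i replicate 1 and 16 in SWNT replicate 1. Just outside it were CCL1 (highest library 32 counts), CCL16 (29), CCL11 (18) and CCR8 (12), each with 10 or more counts in 1 library, and CCL28 with 0 counts in all 10. CCL17, CCL27 and CCR6 did not pass the filter of the test.

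Genes of the same chromosome region did not share 1 pattern. Coordinates are those of the count table, on Sscrofa11.1 per the submitters' processing notes. On chromosome 8, CXCL8 (69932643-69935861) and CXCL2 (70157214-70159138) were at their highest level in SWNT replicate 3. CXCL9 (71663501-71670271), CXCL10 (71693339-71695948) and CXCL11 (71713803-71725674), further along the same chromosome, were highest in SWNT replicate 5 or SWNT-SHP1i replicate 3. On chromosome 6, CCL22 (19296637-19302737) and CCL17 (19345941-19348926) were highest in SWNT-SHP1i replicate 6, while CX3CL1 (19316698-19323094), which lies between them, was highest in SWNT replicate 3. Chromosome 13 held 10 members, ACKR2 and ACKR4 among them.

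The neutrophil attractants CXCL2 and CXCL8 were high in 1 SWNT animal, replicate 3. Both belong to the CXC ligands that act through CXCR2 on neutrophils. CXCL2 had 2.39, 6.70, 8.01, 9.11 and 5.95 CPM in SWNT-SHP1i, against 5.06, 8.94, 409, 11.5 and 3.11 CPM in SWNT. SWNT replicate 3 thus lay 35.6 times above the next library, and the other 9 libraries overlapped. The fold change of CXCL2 was -3.77 ± 1.27 (SE) over all libraries and -0.16 ± 0.46 without SWNT replicate 3, with a 95% interval of -1.05 to 0.74. With the range of animal numbers in the model it was -0.95 (edgeR unadjusted p = 0.256). With and without SWNT replicate 3 the adjusted p of edgeR's test was above the threshold, at 0.997 and 0.987.

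CXCL8, the main neutrophil attractant in human, followed the same library at a lower level. It had 2.21, 0.587, 2.44, 0.480 and 1.08 CPM in SWNT-SHP1i, against 0.772, 0.0590, 13.5, 0.928 and 1.26 CPM in SWNT. Its highest library was 5.52 times the next, and its fold change was -1.28 ± 1.05 with SWNT replicate 3 and 0.85 ± 0.85 without it. In human, close copies of CXCL2 share much of its sequence, and reads of such copies cannot be told apart in these counts.

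CCL4 and CCL5, CC ligands that attract monocytes and T cells, were highest in the same animal. CCL5 had 4.45, 5.82, 18.6, 3.66 and 49.9 CPM in SWNT-SHP1i, against 12.3, 5.28, 89.7, 8.86 and 14.6 CPM in SWNT. The next highest library was SWNT-SHP1i replicate 6, so 1 animal of each group lay above the rest. CCL4 had 1.26 to 6.86 CPM in SWNT-SHP1i (median 2.03) and 0.590 to 15.1 CPM in SWNT (median 2.68). Without SWNT replicate 3 the fold changes were 0.68 ± 0.73 for CCL5 and 0.79 ± 0.67 for CCL4, against -0.67 ± 0.88 and -0.53 ± 0.81 with it.

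CX3CL1, or fractalkine, is a chemokine held on the endothelial surface by a membrane stalk. It had 57.5, 47.3, 38.6, 33.2 and 26.8 CPM in SWNT-SHP1i, against 47.3, 53.2, 145, 29.4 and 47.0 CPM in SWNT. Again SWNT replicate 3 was the highest, at 2.53 times the next library, and the rest overlapped. The fold change was -0.66 ± 0.39, and -0.12 ± 0.26 without that library (95% interval -0.63 to 0.39). ACKR1, which carries chemokines across venular endothelium, had 40.8 to 61.1 CPM in SWNT-SHP1i and 20.6 to 109 CPM in SWNT, with the highest value in the same library. Its fold change was -0.0045 ± 0.39, and 0.48 ± 0.30 with SWNT replicate 3 left out. Endothelial markers summed to 534 to 1249 CPM in SWNT-SHP1i, against 1320 CPM in SWNT replicate 3 and 376 to 848 CPM in the other SWNT libraries, and 4 of the 8 were highest in SWNT replicate 3. Their part in the CX3CL1 and ACKR1 values was not tested.

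Across the 35 tested members, 9 had their highest CPM in SWNT replicate 3, while 11.3% of all genes tested did. They were ACKR1, ACKR3, CCL4, CCL5, CCR10, CX3CL1, CXCL2, CXCL8 and CXCR5. Another 11 of 35 were highest in SWNT-SHP1i replicate 6, with 29.4% of all genes highest there. CCL25, CCL8, CCR1, CCR2 and CX3CR1 had their lowest CPM in SWNT replicate 3. In 5 of 35 members (CXCL2, CCL22, CCR7, CXCL8 and CXCL14) the highest library was over 4 times the next, as in 1.64% of all genes. The sign of the fold change differed with and without SWNT replicate 3 for ACKR1, CCL4, CCL5, CCR10, CCR2, CXCL8 and CXCR3.

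**Figure D2:**
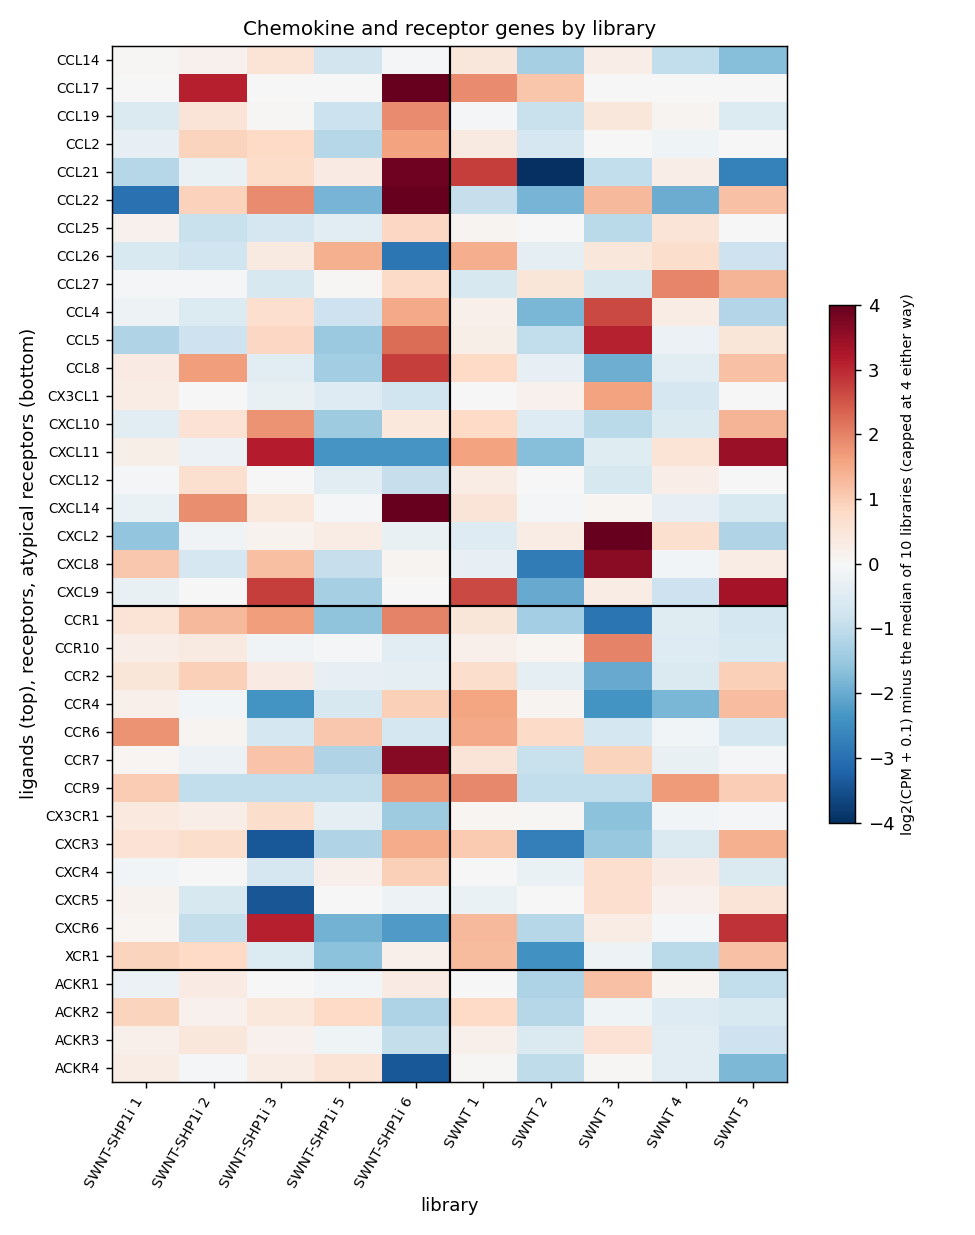
Each row is 1 of 37 members and each column a library, SWNT-SHP1i to the left of the black line and SWNT to the right, coloured by log2(CPM + 0.1) minus the median of the row (red above, blue below, capped at 4). CXCL2, CXCL8, CCL4 and CCL5 are red in SWNT replicate 3, where CCR1, CCR2 and CX3CR1 are blue.

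Other inducible genes moved with that library. The cytokine and NF-kappaB list, 22 of 23 genes found, summed to 664 to 834 CPM in SWNT-SHP1i and to 1566 CPM in SWNT replicate 3, against 667 to 768 CPM in the other 4 SWNT libraries. Of its 22 genes, 10 were highest there. NFKBIA, the inhibitor that NF-kappaB itself induces, had 51.1 to 68.4 CPM in SWNT-SHP1i, 338 CPM in SWNT replicate 3 and 63.3 to 83.8 CPM in the other SWNT libraries. PTGS2, the inducible cyclooxygenase, had 1.33 to 8.37 CPM in SWNT-SHP1i, 146 CPM in SWNT replicate 3 and 4.10 to 9.56 CPM in the others. TNFAIP3, another NF-kappaB target, had 6.08 to 17.1 CPM in SWNT-SHP1i, 92.1 CPM in SWNT replicate 3 and 13.5 to 17.4 CPM in the others.

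Among the cytokine and NF-kappaB genes, 0 of 20 tested had an adjusted p under 0.05. The unadjusted p was under 0.05 for 3 on the lower side, the 3 genes just named, where 1.15% of all genes reached that. Without SWNT replicate 3 there were 0, where the share over all genes was 3.57%. The median fold change of the list was -0.22 with that library and 0.06 without it, where all genes had 0.0056 and 0.0086. Immediate early genes, transcription factors and regulators induced within minutes of a stimulus, summed to 969 to 2515 CPM in SWNT-SHP1i, against 6697 CPM in SWNT replicate 3 and 840 to 2469 CPM in the other SWNT libraries. Of 19 such genes, 15 were highest in that library, 0 were called, and their median fold change was -0.49, or 0.04 without it. The unadjusted p was under 0.05 for 1 of them, on the lower side, where 1.15% of all genes reached that. Without SWNT replicate 3 it was for 0, where 0.841% of all genes did on the lower side. NR4A1 reached 1415 CPM in SWNT replicate 3 and 19.9 to 224 CPM in the other 9 libraries. ZFP36, which destabilises cytokine mRNA, reached 935 CPM there and 70.0 to 140 CPM elsewhere. Red cell markers summed to 25.8 to 237 CPM in SWNT-SHP1i, against 1295 CPM in SWNT replicate 3 and 47.9 to 325 CPM in the other SWNT libraries. Neutrophil markers summed to 7.99 CPM in that library, within the range of the other SWNT libraries (3.21 to 8.78 CPM). The sum hides differences between its markers, some of which were highest among SWNT libraries there and some not. The part of these genes in the chemokine values was not tested.

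**Figure D3:**
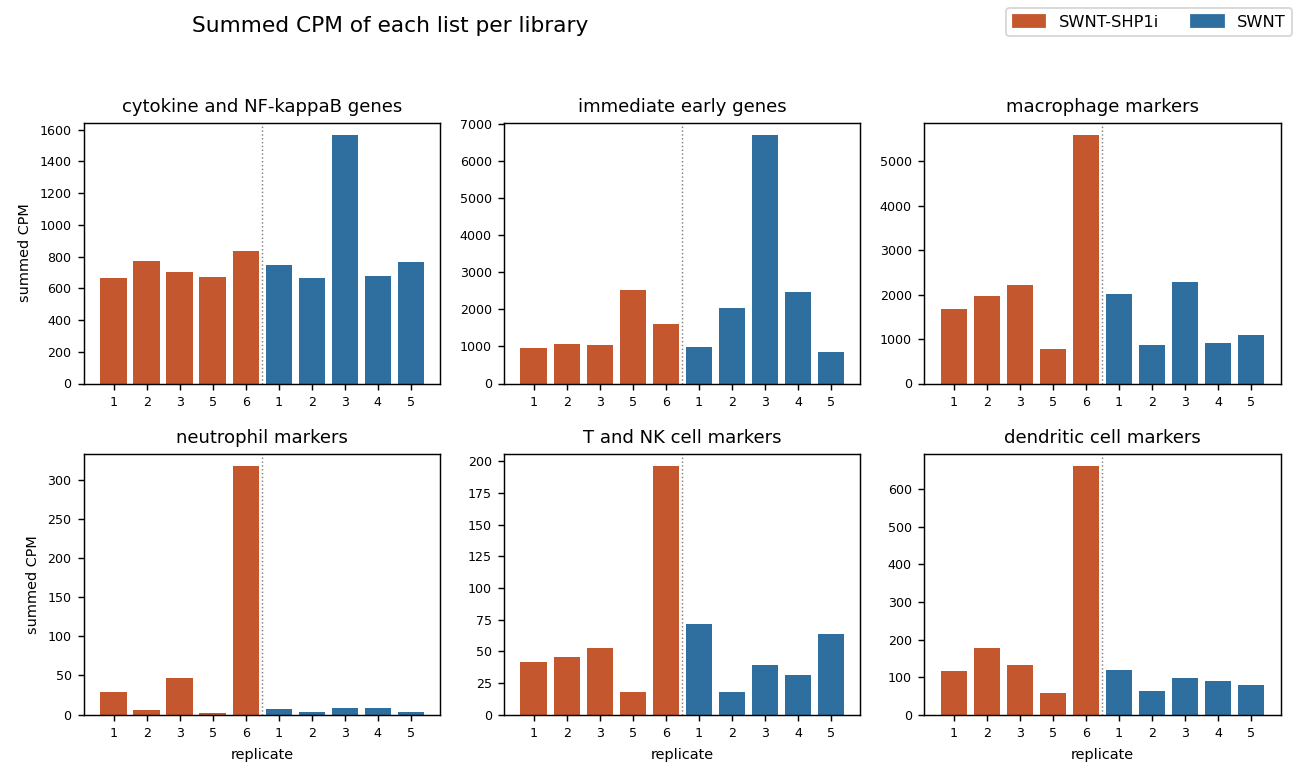
Summed CPM per library of 6 gene lists, SWNT-SHP1i bars left of the dotted line and SWNT bars right. The cytokine and NF-kappaB genes (1566 CPM) and the immediate early genes (6697 CPM) peak in SWNT replicate 3, and the 4 leukocyte lists peak in SWNT-SHP1i replicate 6.

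The 3 ligands of CXCR3 were high in the same animals, which belonged to both groups. CXCL9, CXCL10 and CXCL11 are induced by interferon gamma and attract activated T cells and NK cells. CXCL9 had 7.27, 8.80, 61.9, 3.48 and 9.07 CPM in SWNT-SHP1i, against 55.7, 2.12, 11.03, 4.97 and 90.3 CPM in SWNT. CXCL10 had 10.8, 21.9, 51.4, 5.46 and 19.9 CPM in SWNT-SHP1i, against 25.8, 10.1, 6.88, 9.86 and 38.1 CPM in SWNT. The same 3 libraries were the highest for both, SWNT-SHP1i replicate 3 and SWNT replicates 1 and 5.

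CXCL11 repeated this at a lower level, with 4.45 CPM in SWNT-SHP1i replicate 3, 5.63 CPM in SWNT replicate 5 and 1.50 CPM in SWNT replicate 1, and 0 to 0.652 CPM in the other 7 libraries. CXCR6, a receptor of tissue-resident T cells, had its 3 highest values in these libraries too, at 4.02 CPM in SWNT-SHP1i replicate 3, 3.47 CPM in SWNT replicate 5 and 1.07 CPM in SWNT replicate 1. CXCR3 itself had 1.47, 1.61, 0, 0.360 and 2.83 CPM in SWNT-SHP1i, against 2.09, 0.0590, 0.268, 0.602 and 2.69 CPM in SWNT. It was thus at 0 counts in SWNT-SHP1i replicate 3, although the ligands were high there. With counts taken as independent, which they are not, this allows up to 0.0815 CPM (3 counts). That library had no counts for 13.2% of the genes tested and for 7 members, CXCR3 among them. For CXCL9 the fold change was -0.86 ± 0.99, and -1.08 ± 1.05 without SWNT replicate 3. CXCL10 gave 0.27 ± 0.59 and 0.06 ± 0.61, so neither ligand passed the test. Single libraries decided the size for CXCL9, which gave -2.20 without SWNT-SHP1i replicate 3 (edgeR unadjusted p = 0.0419) and -0.03 without SWNT replicate 5.

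The CCR7 ligands were highest in SWNT-SHP1i replicate 6. CCL19 and CCL21 guide T cells and mature dendritic cells to lymphoid tissue. CCL19 had 51.4, 110.0, 80.0, 41.9 and 284 CPM in SWNT-SHP1i, against 73.6, 41.7, 106, 82.9 and 52.6 CPM in SWNT. CCL21, made by lymphatic endothelium, had 8.54, 15.7, 31.6, 23.9 and 285 CPM in SWNT-SHP1i, against 132, 0.944, 9.64, 23.2 and 2.81 CPM in SWNT. SWNT replicate 1 came second for CCL21 but not for CCL19. Near-identical copies of CCL21 exist in other mammals, so its reads may include such copies.

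Their receptor CCR7 had 1.02, 0.807, 2.23, 0.360 and 13.1 CPM in SWNT-SHP1i, against 1.41, 0.472, 1.88, 0.753 and 0.898 CPM in SWNT. The highest library was 5.90 times the next. Its fold change was 1.69 ± 0.89, 1.98 ± 1.0 with SWNT replicate 3 left out and 0.03 ± 0.69 with SWNT-SHP1i replicate 6 left out. Over the same 3 sets of libraries CCL19 gave 0.67 ± 0.48, 0.85 ± 0.52 and -0.01 ± 0.32.

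CCL17 and CCL22, the CCR4 ligands made by dendritic cells and macrophages, peaked in the same animal. CCL22 had 0, 1.42, 2.88, 0.120 and 19.0 CPM in SWNT-SHP1i, against 0.318, 0.118, 1.88, 0.1004 and 1.68 CPM in SWNT. CCL17 had 31 and 440 counts in SWNT-SHP1i replicates 2 and 6, against 12 and 4 counts in SWNT replicates 1 and 2, and 0 counts in the other 6 libraries. The fold change of CCL22 was 2.50 ± 1.42, 3.07 ± 1.63 with SWNT replicate 3 left out and 0.43 ± 1.31 with SWNT-SHP1i replicate 6 left out. Their receptor CCR4 stayed at 0 to 0.915 CPM in SWNT-SHP1i and 0 to 1.50 CPM in SWNT.

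CXCL14, a chemokine of fibroblasts and epithelia, had the second smallest p of the members. It had 10.3, 45.4, 16.8, 11.8 and 206 CPM in SWNT-SHP1i, against 17.9, 11.9, 13.1, 9.99 and 8.20 CPM in SWNT. SWNT-SHP1i replicates 6 and 2 lay above every SWNT library, and the other 3 did not. The mean was 58.1 ± 83.9 CPM in SWNT-SHP1i and 12.2 ± 3.68 CPM in SWNT (SD, n = 5 each). Its fold change was 2.25 ± 0.76 (edgeR unadjusted p = 0.0118, adjusted p = 0.997), and 2.27 ± 0.87 without SWNT replicate 3 (unadjusted p = 0.0240, adjusted p = 0.983). Without SWNT-SHP1i replicate 6 it was 0.79 ± 0.41, with an unadjusted p = 0.0828 and an adjusted p = 0.951. Fibroblast markers, 7 of 7 with a fold change above 0 and 0 called, summed to 31980 to 56470 CPM in SWNT-SHP1i and 18620 to 38530 CPM in SWNT, mostly COL1A1. In SWNT-SHP1i replicate 6 COL1A1 was at its highest (53800 CPM), while PDGFRA (60.7 CPM), DCN (771 CPM), LUM (384 CPM) and PI16 (605 CPM) were the lowest of the SWNT-SHP1i libraries. The part of fibroblast RNA in the CXCL14 values was not tested.

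**Figure D4:**
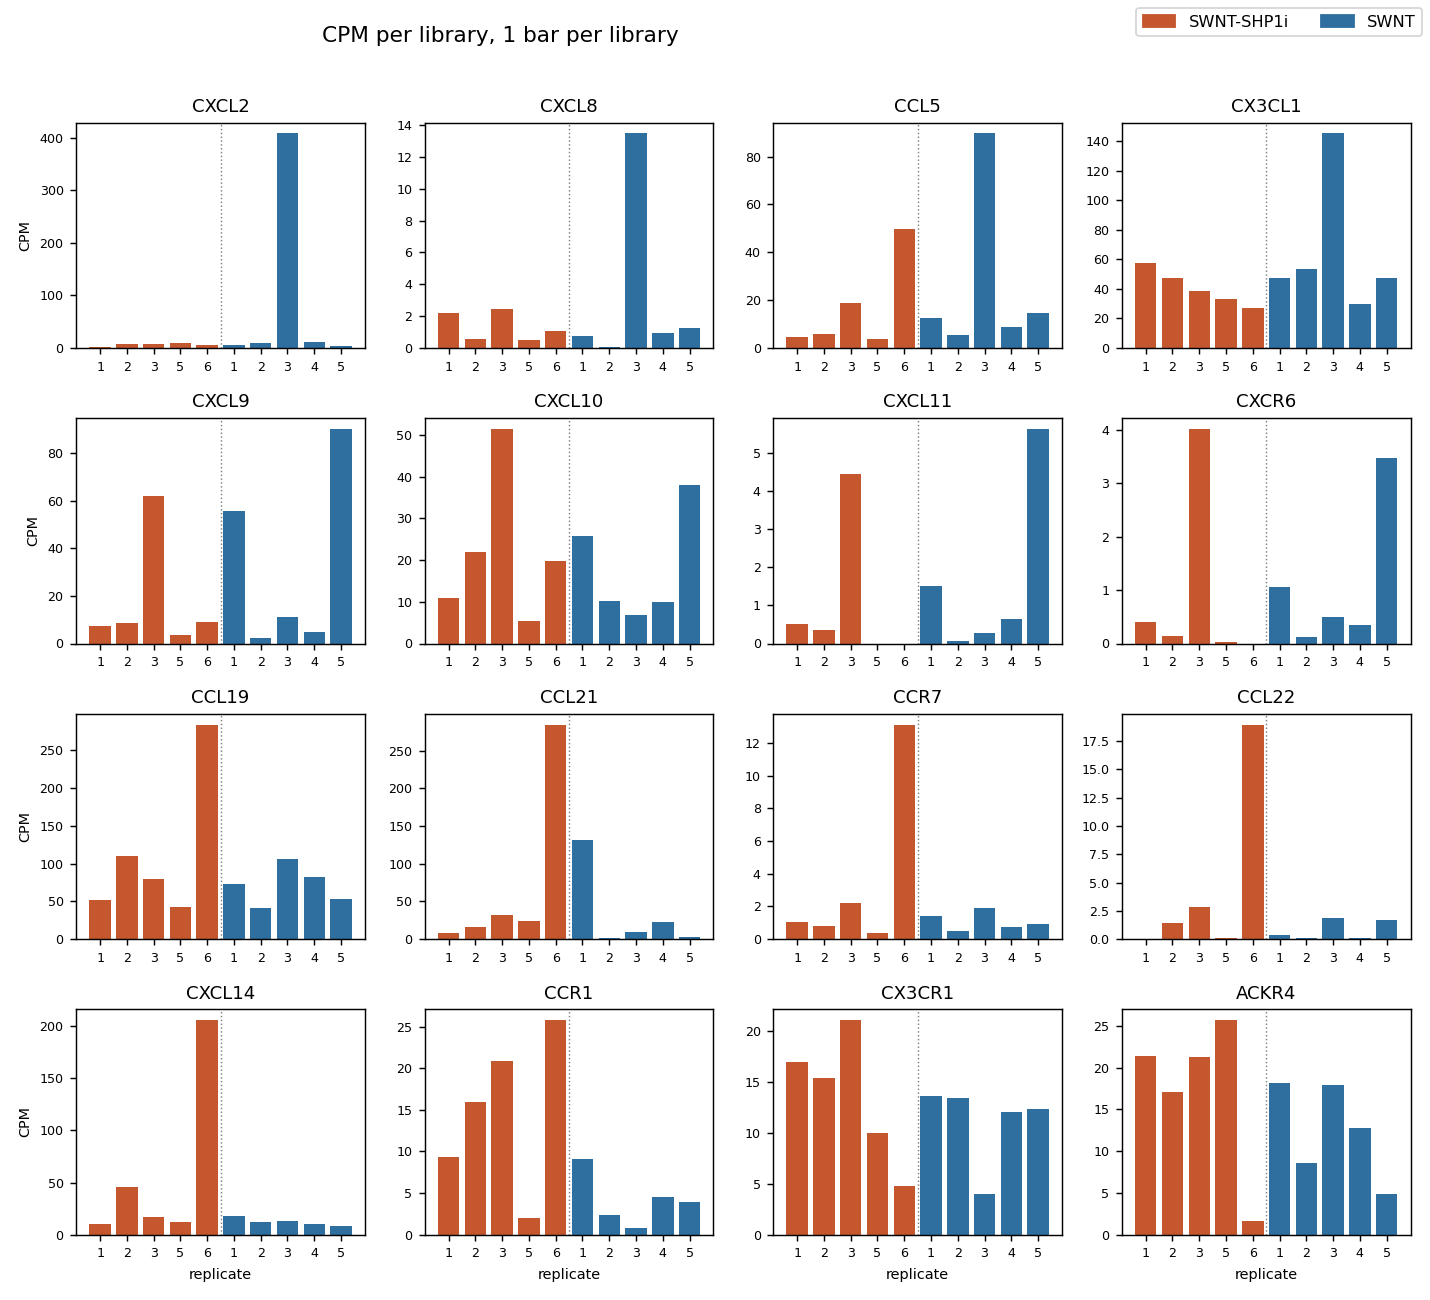
CPM of 16 members, 1 bar per library with its replicate number below, SWNT-SHP1i left of the dotted line and SWNT right, each panel on its own axis from 0. CXCL2, CXCL8, CCL5 and CX3CL1 peak in SWNT replicate 3, CXCL9 to CXCL11 and CXCR6 in SWNT-SHP1i replicate 3 and SWNT replicate 5, and CCL19, CCL21, CCR7, CCL22 and CXCL14 in SWNT-SHP1i replicate 6.

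Summed markers of macrophages, neutrophils, dendritic cells and T and NK cells, but not of B cells, were also highest in SWNT-SHP1i replicate 6. The 9 macrophage markers found summed to 1666, 1960, 2222, 768 and 5591 CPM in SWNT-SHP1i and to 2018, 868, 2295, 902 and 1090 CPM in SWNT. CD74 alone made up 4210 CPM in SWNT-SHP1i replicate 6 and 2107 CPM in SWNT replicate 3, so these sums mostly follow CD74. The 7 neutrophil markers found summed to 28.4, 6.04, 47.0, 1.77 and 317 CPM in SWNT-SHP1i and 3.21 to 8.78 CPM in SWNT, and MMP9 alone made up 221 CPM in replicate 6. MPO, the neutrophil myeloperoxidase, was at 0 in the 9 libraries other than SWNT-SHP1i replicate 6 (3.37 CPM). The 9 T and NK cell markers summed to 18.2 to 196 CPM in SWNT-SHP1i and 17.8 to 71.7 CPM in SWNT, with NKG7 at 124 CPM in replicate 6 and 4 of the 9 highest there. Of the 5 dendritic cell markers found, summed at 56.8 to 661 CPM in SWNT-SHP1i and 63.3 to 120.0 CPM in SWNT, FSCN1 made up 557 CPM in replicate 6. B cell markers ranged from 7.22 to 25.7 CPM in SWNT-SHP1i and from 9.26 to 23.6 CPM in SWNT. The part of these markers in the chemokine values was not tested.

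CCL2 and CCL8, the CCR2 ligands that attract monocytes, overlapped between the groups. CCL2 had 23.5, 54.5, 51.4, 13.3 and 89.7 CPM in SWNT-SHP1i, against 38.0, 18.3, 29.8, 26.2 and 29.1 CPM in SWNT. SWNT-SHP1i replicates 2, 3 and 6 lay above every SWNT library and replicate 5 below every one. The fold change of CCL2 was 0.72 ± 0.42, and 0.73 ± 0.47 without SWNT replicate 3. CCL8 had 0.899 to 17.7 CPM in SWNT-SHP1i (median 3.20) and 0.581 to 5.78 CPM in SWNT (median 1.98), with a fold change of 1.12 ± 0.79 (0.85 ± 0.78 without SWNT replicate 3). With SWNT-SHP1i replicate 6 left out, the fold changes were 0.34 ± 0.37 for CCL2 and 0.27 ± 0.71 for CCL8.

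CCR1, a receptor of monocytes, macrophages and neutrophils for CCL5 and CCL14, had the third smallest p. It had 9.35, 15.99, 20.9, 2.04 and 25.8 CPM in SWNT-SHP1i, against 9.13, 2.42, 0.759, 4.52 and 3.89 CPM in SWNT. SWNT-SHP1i replicates 1, 2, 3 and 6 lay above every SWNT library and replicate 5 below 4 of the 5. The mean was 14.8 ± 9.37 CPM in SWNT-SHP1i and 4.14 ± 3.14 CPM in SWNT (SD, n = 5 each). Its fold change was 1.83 ± 0.67 (95% interval 0.52 to 3.15, edgeR unadjusted p = 0.0179, adjusted p = 0.997). Without SWNT replicate 3 it was 1.56 ± 0.63 (unadjusted p = 0.0301, adjusted p = 0.983), and without SWNT-SHP1i replicate 6 it was 1.54 ± 0.69.

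Markers of several cell types moved beside CCR1. All 9 macrophage markers tested had a fold change above 0, where 50.8% of all genes did, with a median of 1.47 (1.33 without SWNT replicate 3), and 0 of 9 were called. The unadjusted p was under 0.05 for 7 of them, all on the higher side, where 3.49% of all genes reached that. Without SWNT replicate 3 it was for 5 of them, where 2.73% of all genes did on the higher side. With SWNT-SHP1i replicate 6 left out, 8 of 9 were above 0 with a median of 0.87, CD74 stood at 0.0052 and LYZ at -0.62. All 4 neutrophil markers tested were above 0, with a median of 3.23 (1.93 with that library left out), and all 7 smooth muscle markers were below 0, with a median of -0.69 (-0.58). Above 0 were also 7 of 7 fibroblast markers (median 0.32) and 4 of 5 dendritic cell markers (1.37). Schwann cell markers had 0 of 5 above 0 (-0.80) and red cell markers 0 of 3 (-1.46). T and NK cell markers had 4 of 9 above 0 and B cell markers 4 of 7. CD163, the haemoglobin scavenger receptor, had 107, 135, 116, 42.8 and 193 CPM in SWNT-SHP1i, against 75.8, 19.4, 22.8, 28.2 and 21.8 CPM in SWNT. CCR1 and CD163 were both lowest among SWNT-SHP1i libraries in replicate 5. The part of these cell types in the CCR1 values was not tested.

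CCR2 and CX3CR1, other receptors of monocytes, had fold changes nearer to 0, and their difference from CCR1 was not tested. CCR2, the receptor of CCL2, had 17.1, 23.9, 15.4, 9.89 and 9.57 CPM in SWNT-SHP1i, against 20.1, 9.55, 2.99, 8.26 and 23.9 CPM in SWNT. CX3CR1, the fractalkine receptor of patrolling monocytes and resident macrophages, had 16.9, 15.3, 21.1, 10.01 and 4.74 CPM in SWNT-SHP1i, against 13.7, 13.4, 4.02, 12.0 and 12.3 CPM in SWNT. Both receptors, and CCR1, were lowest in SWNT replicate 3.

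For these receptors the groups overlapped throughout. The fold changes were 0.23 ± 0.48 for CCR2 and 0.30 ± 0.41 for CX3CR1, with 95% intervals of -0.70 to 1.17 and -0.50 to 1.10. Without SWNT replicate 3 they were -0.02 ± 0.39 and 0.08 ± 0.37. A change of this size in either direction could not be told from the spread between animals.

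CXCL12, the ligand that holds and recalls CXCR4-bearing cells, overlapped between the groups. It had 226, 364, 234, 172 and 124 CPM in SWNT-SHP1i, against 288, 238, 149.6, 279 and 233 CPM in SWNT. The fold change was -0.08 ± 0.28, with a 95% interval of -0.64 to 0.47, and -0.21 ± 0.28 without SWNT replicate 3. CXCR4 had 3.64 to 11.5 CPM in SWNT-SHP1i and 3.89 to 9.42 CPM in SWNT (fold change 0.07 ± 0.36, and 0.26 ± 0.37 without SWNT replicate 3). ACKR3, which removes CXCL12, had 46.3 to 125 CPM in SWNT-SHP1i and 50.9 to 137 CPM in SWNT (0.13 ± 0.32, and 0.38 ± 0.30 without SWNT replicate 3).

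ACKR2 and ACKR4 were low in SWNT-SHP1i replicate 6. ACKR2 scavenges inflammatory CC chemokines, and ACKR4 scavenges CCL19, CCL21 and CCL25. ACKR4 had 21.4, 17.1, 21.3, 25.7 and 1.58 CPM in SWNT-SHP1i, against 18.1, 8.55, 17.9, 12.7 and 4.91 CPM in SWNT. ACKR2 had 62.8, 38.4, 45.4, 59.3 and 14.3 CPM in SWNT-SHP1i, against 59.3, 15.4, 30.4, 23.6 and 22.4 CPM in SWNT. In the animal with the most CCL19 and CCL21, ACKR4 was thus at its lowest. That library was the lowest for 7 of the 35 tested members (20%), and for 30.7% of all genes tested. A link between ACKR4 and these ligands was not tested. The fold changes were 0.48 ± 0.56 for ACKR4 and 0.54 ± 0.41 for ACKR2, 0.65 ± 0.62 and 0.54 ± 0.46 with SWNT replicate 3 left out, and 0.78 ± 0.33 and 0.77 ± 0.34 with SWNT-SHP1i replicate 6 left out. In that last fit the unadjusted p of edgeR was 0.0377 for ACKR4 and 0.0424 for ACKR2, and the adjusted p was 0.951 for both. ACKR4 overlaps ACAD11 on the opposite strand, and since the strand setting of the counts is not given in the sources used here, its reads may include those of ACAD11.

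CCL14 and CCL26 were abundant, and neither passed the test. CCL14 had 50.2, 54.1, 70.3, 28.8 and 46.5 CPM in SWNT-SHP1i, against 65.6, 19.1, 57.7, 24.5 and 14.9 CPM in SWNT, with a fold change of 0.46 ± 0.41 (95% interval -0.34 to 1.26) and 0.68 ± 0.42 without SWNT replicate 3. CCL26, an eosinophil attractant in human, had 12.0, 10.6, 23.9, 49.5 and 2.41 CPM in SWNT-SHP1i, against 51.3, 14.5, 25.7, 30.4 and 10.3 CPM in SWNT. Its fold change was -0.42 ± 0.64, and -0.44 ± 0.71 without SWNT replicate 3. It moved to -1.11 without SWNT-SHP1i replicate 5 and to -0.04 without SWNT replicate 1.

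Receptors of lymphocytes and dendritic cells were rare. XCR1, found on cross-presenting dendritic cells, had 0.480 to 3.30 CPM in SWNT-SHP1i and 0.236 to 4.27 CPM in SWNT. CCR9, the receptor of CCL25, had 0 to 0.582 CPM in SWNT-SHP1i and 0 to 0.658 CPM in SWNT, and CCL25 itself 1.17 to 4.08 CPM and 1.03 to 3.29 CPM. CCR10, a receptor of skin-homing T cells, had 1.996 to 3.57 CPM in SWNT-SHP1i and 1.77 to 3.20 CPM in SWNT outside replicate 3, which was highest at 3.11 times the next library. CXCR5, the receptor of follicular B cells, had 0 to 1.07 CPM in SWNT-SHP1i and 0.795 to 1.61 CPM in SWNT. CCR10 overlaps CNTNAP1, CXCR5 overlaps BCL9L and CXCR6 overlaps 2 unnamed genes, all on the opposite strand. Since the strand setting is not given in the sources used here, those reads cannot be assigned with certainty.

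**Figure D5:**
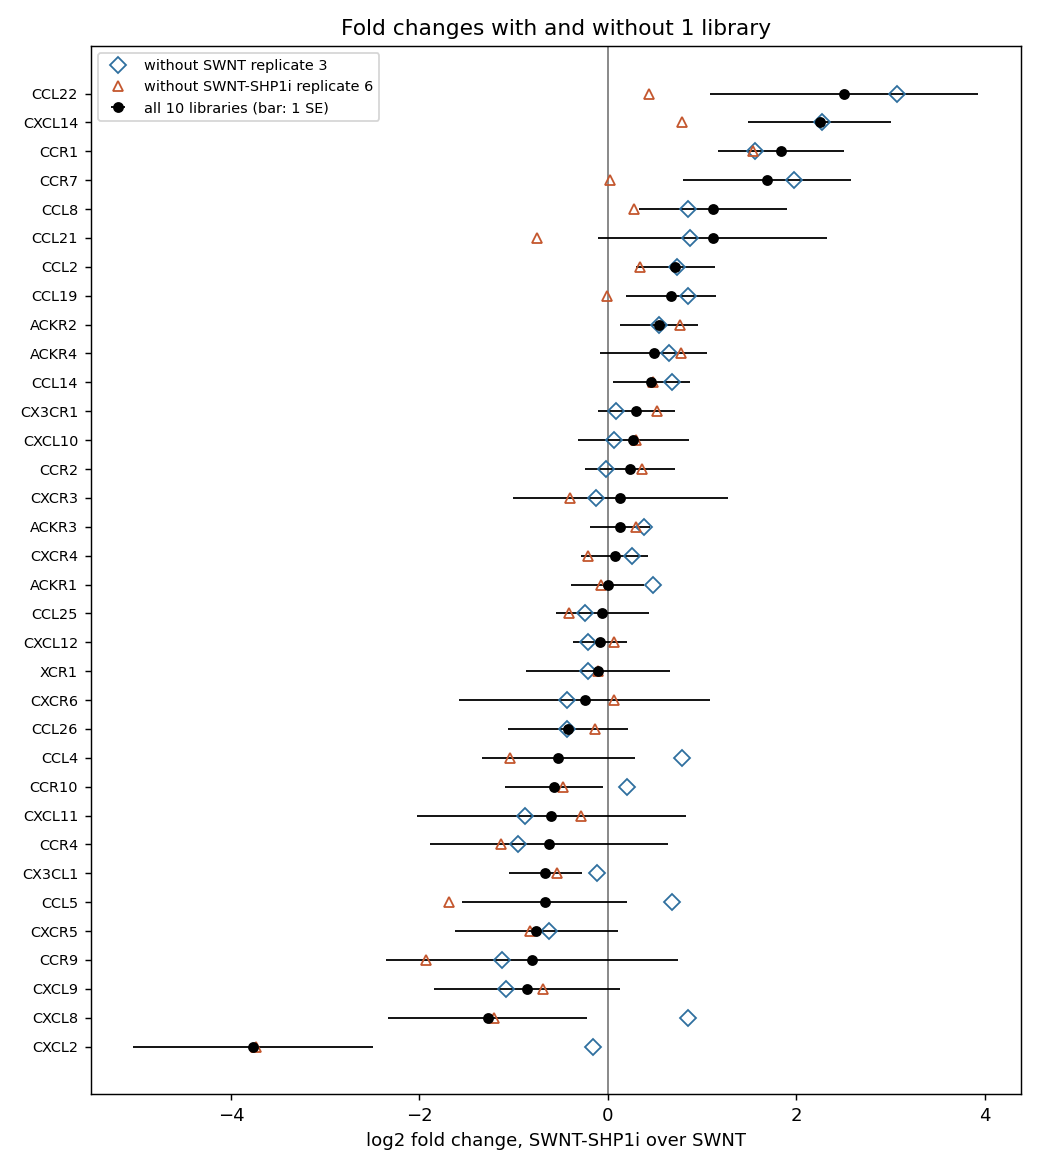
log2 fold change of 34 tested members over all 10 libraries (black circle, bar 1 SE), with SWNT replicate 3 left out (blue diamond) and with SWNT-SHP1i replicate 6 left out (orange triangle). CXCL2 moves to -0.16 without SWNT replicate 3, CCR7 to 0.03 without SWNT-SHP1i replicate 6, and CCR1 lies between 1.54 and 1.83 in all 3.

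Genes that act around the receptors were described by counts. In the list of G proteins, kinases, arrestins and migration genes, 21 of 31 tested had a fold change above 0 with a median of 0.28 (0.30 with SWNT replicate 3 left out, 0.037 with SWNT-SHP1i replicate 6 left out), and 0 were called. The unadjusted p was under 0.05 for 5 on the higher side, where 3.49% of all genes reached that, and for 0 on the lower. PTK2B, a kinase of leukocyte adhesion, had a fold change of 1.08 ± 0.39, and ARRB2, an arrestin that desensitises chemokine receptors, 1.06 ± 0.45. PTK2B and ARRB2 gave 1.04 and 1.10 with SWNT replicate 3 left out, and 0.67 and 0.38 with SWNT-SHP1i replicate 6 left out.

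Adhesion genes that arrest leukocytes after chemokine contact had a median fold change of 0.20 over 13 tested (0.42 with SWNT replicate 3 left out, 0.059 with SWNT-SHP1i replicate 6 left out), 9 of them above 0, and 0 were called. The unadjusted p was under 0.05 for 2 of them, both on the higher side, where 3.49% of all genes reached that. ITGB2, the beta chain of the leukocyte integrins, was 1 of these 2 adhesion genes, with 1.46 ± 0.56. It gave 1.38 with SWNT replicate 3 left out and 0.60 with SWNT-SHP1i replicate 6 left out. VCAM1 and ICAM1, the endothelial ligands of leukocyte integrins, were highest in SWNT replicate 3. VCAM1 had 37.6 to 104 CPM in SWNT-SHP1i, 198 CPM in SWNT replicate 3 and 39.4 to 69.5 CPM in the other SWNT libraries. ICAM1 had 18.2 to 85.1 CPM in SWNT-SHP1i, 103 CPM in SWNT replicate 3 and 15.5 to 27.9 CPM in the others. The summed endothelial markers were highest in the same library, and their part in these values was not tested.

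Among genes that present or trim chemokines, 10 of 16 tested had a fold change above 0, with a median of 0.11 (0.02 with SWNT replicate 3 left out, 0.0081 with SWNT-SHP1i replicate 6 left out), and 0 were called. MMP9, a gelatinase that cleaves chemokines, had 221 CPM in SWNT-SHP1i replicate 6 and 0.120 to 6.30 CPM in the other SWNT-SHP1i libraries, against 0.0590 to 2.46 CPM in SWNT. MMP2, the constitutive gelatinase, had 815 to 4152 CPM in SWNT-SHP1i and 802 to 1247 CPM in SWNT, with a fold change of 0.95 ± 0.38. It gave 0.89 with SWNT replicate 3 left out and 0.42 with SWNT-SHP1i replicate 6 left out.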

How the data were processed

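Messenger RNA of carotid artery, captured on poly-T beads per the labels' protocols, was sequenced. The authors deposited raw read counts per gene with summed exon length as 1 table. Per the submitters' processing notes, the tools were Trim Galore, STAR and DESeq2 and the build Sscrofa11.1. Which program counted reads, with which strand setting and annotation, was not given in the sources used here. Of counts of 10 or more, 80.6% were even in SWNT-SHP1i replicate 3, 67.3% in SWNT-SHP1i replicate 6 and 67% in SWNT replicate 3. The rest had 55.6% to 58.2%. The same libraries had the most tested genes without counts, and the cause was not tested. Whether mates of a read pair were counted separately is not stated. Counts are not independent molecules. Genes passing filterByExpr (minimum count 10, 15930 genes, at least 99.89% of counts) were scaled by TMM and tested with edgeR 4.0.16 (robust quasi-likelihood test, R 4.3.3), adjusted by Benjamini-Hochberg over all genes at 0.05. The SE is the size of the log2 fold change over the root of its F statistic, and 95% intervals use 1.96 SE. With so few animals the F test takes a larger multiple than 1.96, so these intervals are too narrow. CPM use the TMM-scaled library sizes. TPM divide counts by exon length. Floors (3 counts) cover counting error only, and intervals of fold changes cover the spread between animals.

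Members, gene lists and tests were chosen with earlier results of these data known. Values by library were given for the 8 members with the smallest p with and without SWNT replicate 3, the 8 with the highest mean TPM, those whose highest library is over 4 times the next, and their ligands or receptors. 1 member and some list genes are counted but not reported here. From each pathway list up to 3 genes with the smallest p were named. CXCL9, CXCL10, CXCL11, CXCR6, ACKR2, ACKR4, other members and VCAM1, ICAM1, CD74, FSCN1, COL1A1, MPO and NKG7 were chosen after their values were seen. List symbols came from the table or, where it has none, from a separate list pairing identifiers with symbols. The alternatives, with limma 3.58.1 and DESeq2 1.42.0 among them, were tried on the fold changes of the reported members. Members too low for a filter have fewer alternatives, and list genes have only 2, leaving out SWNT replicate 3 or SWNT-SHP1i replicate 6. The fit was tested on simulated data. Replicates are separate animals numbered in accession order, which pairs none.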

Additional observations from a re-analysis of the deposited data

Results flagged for a closer look

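In 4 of 76 groups of 5 libraries, 1 library lay far from the other 4 on the log2 CPM scale, by the ratio of its gap to the range of the group (above 0.71). Chance flags about 1 in 20 groups. CXCL2 in SWNT replicate 3 had a ratio of 0.734, at 409 CPM, where the other SWNT libraries had 3.11 to 11.5 CPM. CX3CR1 in the same library had a ratio of 0.894 and lay below, with 4.02 CPM against 12.0 to 13.7 CPM. ACKR4 in SWNT-SHP1i replicate 6 had a ratio of 0.852, with 1.58 CPM against 17.1 to 25.7 CPM. CXCR5 in SWNT-SHP1i replicate 3 had a ratio of 0.815, with 0 CPM against 0.587 to 1.07 CPM, in the library where 13.2% of the genes tested had no counts.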

How the results depend on the processing

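Under every alternative run, 0 members and 0 genes in all had an adjusted p under 0.05, and edgeR's test on all 10 libraries also gave 0 at 0.1. The lowest adjusted p over all genes was 0.0631 with DESeq2 and 0.0933 with limma-voom, each under 0.1. With limma-voom, 5 of 35 members had an unadjusted p under 0.05, all on the higher side. Over all genes, 1400 of 15930 reached that level on either side in the same fit. The fold changes of the 5 members were 0.65 for ACKR3, 0.93 for ACKR2, 0.96 for ACKR4, 1.35 for CCR1 and 0.91 for CCL14. Genes with an unadjusted p under 0.05 numbered 739 in edgeR's test on all 10 libraries, 986 with DESeq2 and 1400 with limma-voom. Of 672 alternative fold changes of 34 tested members, 607 kept their sign and 65, in 19 members, did not. Without SWNT-SHP1i replicates 3 and 6 the values of other sign were CCL19 -0.065, CCL21 -1.06, CCL22 -0.64, CCR7 -0.56, CXCL10 -0.50, CXCL12 0.10, CXCR4 -0.054 and XCR1 0.11. Without SWNT replicate 3 and SWNT-SHP1i replicate 6 (chosen after seeing the data) they were ACKR1 0.40, CCL21 -1.0, CCL4 0.26, CCR10 0.30, CXCL8 0.91, CXCR3 -0.64 and CXCR4 -0.024. With limma-voom and quality weights they were ACKR1 0.61, CCL22 -0.72, CCL4 0.24, CCR10 0.33, CXCL10 -0.26, CXCL12 0.089, CXCL8 0.87 and XCR1 0.85. With the leading digit of the animal numbers as a covariate they were ACKR1 0.18, CCL4 0.22, CCL5 0.13 and CXCR3 -0.33. ACKR1 also gave 0.022 with RLE scaling, 0.023 with DESeq2 and 0.0048 with the filter of 1 CPM. Halving the counts (chosen after seeing the data) turned no sign. The cause of these turns was not tested, and each of these fits uses other libraries, weights or terms.

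With 1 library left out, the lowest and highest fold changes of members that changed sign were -0.21 and 0.48 for ACKR1, -0.0089 and 0.38 for ACKR3, -0.0091 and 0.88 for CCL19, -0.76 and 2.99 for CCL21, -0.41 and 0.10 for CCL25, -1.04 and 0.79 for CCL4, and -1.68 and 0.68 for CCL5. They were -0.77 and 0.20 for CCR10, -0.023 and 0.57 for CCR2, -0.33 and 0.73 for CXCL10, -2.86 and 0.77 for CXCL11, -0.33 and 0.067 for CXCL12, and -1.60 and 0.85 for CXCL8. They were -0.40 and 0.72 for CXCR3, -0.21 and 0.26 for CXCR4, -2.83 and 0.85 for CXCR6, and -0.39 and 0.31 for XCR1. CXCL2 ran from -4.08 to -0.16, CXCL14 from 0.79 to 2.50 and CCR1 from 1.54 to 2.35. With 2 libraries left out CCR1 was lower. It gave 1.15 without SWNT-SHP1i replicates 3 and 6 (edgeR unadjusted p = 0.157). Without SWNT replicate 3 and SWNT-SHP1i replicate 6 it gave 1.27 (edgeR unadjusted p = 0.0655). Members under about 1 CPM rest on few counts. No paired analysis was possible because the replicate numbers follow accession order and pair no animals.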

Other observations

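IFNG, the gene of the interferon that induces CXCL9 to CXCL11, had 0 counts in all 5 SWNT-SHP1i libraries, and 14, 4, 6, 16 and 5 counts in SWNT replicates 1 to 5. It was too low to be tested and was singled out after its values were seen. With counts taken as independent, 0 counts allow up to 0.0733 to 0.125 CPM per SWNT-SHP1i library (3 counts). Counts are not independent here, so these limits may be too low. The SWNT values were 0.118 to 0.402 CPM. Among the genes tested, which leave IFNG out, the groups lay apart in 0.358%. The SWNT-SHP1i library with the most CXCL9, replicate 3, was among those at 0, and it is also the library with the most tested genes at 0 (2096).

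CCL1, a ligand of CCR8 left out by the count rule, had 32 counts in SWNT-SHP1i replicate 6 and 8 in SWNT replicate 5, and 0 in the other 8 libraries. CCL16 had 29 counts in SWNT replicate 4 and 0 to 8 in the other 9 libraries. CSF2, a myeloid growth factor, had 6 counts in SWNT-SHP1i replicate 6, the library with the most CCL17 and CCL22, and 0 in the other 9.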
